A study of Homo sapiens with 9 samples.

Results

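Genes of the heterochromatin and Polycomb machinery were followed through 9 RNA libraries of hTERT_RPE1 cells. They were taken by symbol from a table of 26475 genes, 10 of 26475 in all, and all 10 passed the filter on low counts, which kept 13784 genes. The HP1 proteins are encoded by 3 of them (CBX1, CBX3 and CBX5), 3 act in the methylation of histone H3 at lysine 9 or in its recruitment (SUV39H2, SETDB1 and TRIM28), and 4 encode the core of Polycomb repressive complex 2, PRC2 (EZH1, EZH2, EED and SUZ12).

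HP1 proteins bind histone H3 methylated at lysine 9 (H3K9) and compact the chromatin that carries the mark. SUV39H2 and SETDB1 write the mark, and TRIM28 is the corepressor through which zinc finger proteins bring SETDB1 to DNA. PRC2 methylates histone H3 at lysine 27. EZH1 and EZH2 are alternative catalytic subunits, EED binds the methylated product and stimulates the enzyme, and SUZ12 is the scaffold. EZH2 is typically abundant in dividing cells and EZH1 in resting ones.

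hTERT_RPE1 is a line of human retinal pigment epithelial cells immortalised with telomerase. RNA was taken after 24 h of growth on fibronectin-coated surfaces. Control cells carried the control vector on glass, sh_PIP4K2B cells carried 1 of 3 hairpins against the lipid kinase PIP4K2B on glass, and Soft cells carried the control vector on a 2.3 kPa hydrogel, with 3 libraries in each group. Sample titles and the study's text call the control an empty pLKO vector, whereas the treatment label calls it a control shRNA. Either way all 9 libraries came from transduced cells and none from untransduced ones. With an empty vector, Control and Soft carry no hairpin, and an effect of expressing any hairpin could not be told apart from the knockdown. Each hairpin was sequenced in 1 library, so a difference between hairpins and a difference between cultures cannot be told apart. The labels do not say that replicates came from separate cultures, so the spread within Control and within Soft may be technical. Among the hairpins the spread also holds any difference between hairpins. The p-values rest on a spread pooled over all 9 libraries, so those of the knockdown also draw on Control and Soft.

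Library totals ran from 19217346 to 24020799 counts, and the 10 genes had between 163 counts (SUV39H2 in Soft) and 9098 counts (TRIM28 in Control) in a library. PIP4K2B stood at 39.6%, 33.5% and 30% of the Control mean with hairpins #1, #2 and #3 (log2 fold change -1.54 ± 0.12 SE, adjusted p = 0.00038, edgeR), and in Soft it was at 119, 122 and 127 CPM (counts scaled to the TMM-normalised library size) against 123, 124 and 120 in Control. The median standard deviation of a gene's log2 CPM was 0.36 among the hairpins, 0.08 in Control and 0.07 in Soft. Of 8 markers of differentiated pigment epithelium, 6 were under 1 CPM in every library, RPE65, TYR and TTR among them, while MITF was at 34.3 to 39.3 CPM in Control, 24.4 to 37.9 with the hairpins and 25.9 to 26.4 in Soft, and OTX2 was at 10.3 to 11.7, 15.8 to 19.6 and 34.8 to 39.4 CPM. The epithelial keratin KRT8 was at 1040 to 1140 CPM in Control, 372 to 675 with the hairpins and 536 to 559 in Soft, and CDH1 and EPCAM were at or near 0. Of 5 markers of other cell types 2 were under 1 CPM throughout, and the summed level of all 5 was 8680 to 8770 CPM in Control, 4220 to 8280 with the hairpins and 6210 to 6540 in Soft, most of it VIM. COL1A1 was at 127 to 135 CPM in Control, 174 to 389 with the hairpins and 245 to 271 in Soft, and PECAM1 reached 4.34 to 5.33 CPM in Soft. The part of these markers in the results was not tested.

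The bases just before the start site are shown for the 4 PRC2 core genes, because the catalytic paralogues EZH1 and EZH2 had differences of opposite sign in both comparisons with Control while EED and SUZ12 moved together in Soft. Sequences are RefSeq's on GRCh38.p14, 120 bases that end at the base before the RefSeq start, written 5′ to 3′ along the gene, and 9 of the 10 genes had an entry (TRIM28 did not). EZH2 lies on the minus strand at chr7:148884292-148884411 and EZH1 on the minus strand at chr17:42745041-42745160, and EED lies on the plus strand at chr11:86244633-86244752 and SUZ12 on the plus strand at chr17:31936887-31937006. The stretch of EED lies inside the gene's GENCODE span, chr11:86201212-86278813. EZH2 and SETDB1 had 2 entries and CBX5 had 3, and the 1 nearest the start of the canonical transcript was used. Capitals mark the CCAAT box, read as ATTGG where it is on the opposite strand, except in EZH1, where they mark an E2F motif on the opposite strand.
EZH2: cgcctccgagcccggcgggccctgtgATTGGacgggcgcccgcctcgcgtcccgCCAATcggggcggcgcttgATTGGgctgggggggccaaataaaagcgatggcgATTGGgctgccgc
EZH1: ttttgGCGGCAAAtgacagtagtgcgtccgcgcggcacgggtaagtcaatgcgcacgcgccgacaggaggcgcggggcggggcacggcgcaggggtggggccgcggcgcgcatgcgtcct
EED: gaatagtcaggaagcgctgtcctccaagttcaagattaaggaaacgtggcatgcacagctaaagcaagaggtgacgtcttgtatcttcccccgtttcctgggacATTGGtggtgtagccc
SUZ12: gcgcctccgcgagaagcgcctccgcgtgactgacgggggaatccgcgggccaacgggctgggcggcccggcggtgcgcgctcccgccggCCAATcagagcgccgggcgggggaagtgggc
EZH2 held 4 CCAAT boxes in this stretch, beginning at -94, -66, -47 and -13, whereas EED held 1 at -16, SUZ12 held 1 at -31 and EZH1 held none. In the whole window, from 250 bases before to 50 after the start, SUZ12 also had an E2F motif at -189 and a CHR motif at -173. EZH2 had an E2F motif among the 50 bases after its start, CBX3 had one at -4, and EZH1 had the one printed, at -115. SUV39H2 had a CHR motif among the 50 bases after its start and CBX5 a CCAAT box at -29. The motifs searched on both strands were CCAAT, the CHR element TTTGAA and the E2F forms TTTCCCGC, TTTCGCGC, TTTGCCGC and TTTGGCGC, none of which overlaps another. CCAAT was present in 34.6% of all 35116 windows, CHR in 15.2% and E2F in 3.31%. A match is a description of the letters and not evidence of binding.

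The HP1 genes were among the most abundant of the set. Per kilobase of canonical transcript, the Control mean was highest for TRIM28 (118 ± 5.13 CPM per kb, SD, n = 3), followed by CBX3 (83 ± 8.54) and CBX1 (69.6 ± 1.83). CBX5 (15.9 ± 1.03), EZH2 (13.2 ± 0.632), EED (11.1 ± 0.195) and SUZ12 (10.7 ± 0.996) came next, and SETDB1 (5.11 ± 0.201), SUV39H2 (5.07 ± 0.0645) and EZH1 (4.37 ± 0.35) were lowest. EED and SUZ12 overlapped in their Control ranges, as did SETDB1 and SUV39H2. The value of CBX5 rests on a canonical transcript of 11.546 kb and would be higher for a shorter isoform. In Soft, EZH1 (7.19 ± 0.69 CPM per kb) and SETDB1 (8.48 ± 0.787) stood above EED (5.6 ± 0.168), the reverse of their order in Control, and SUV39H2 had the lowest level of the set (2.63 ± 0.276).

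**Figure D1:**
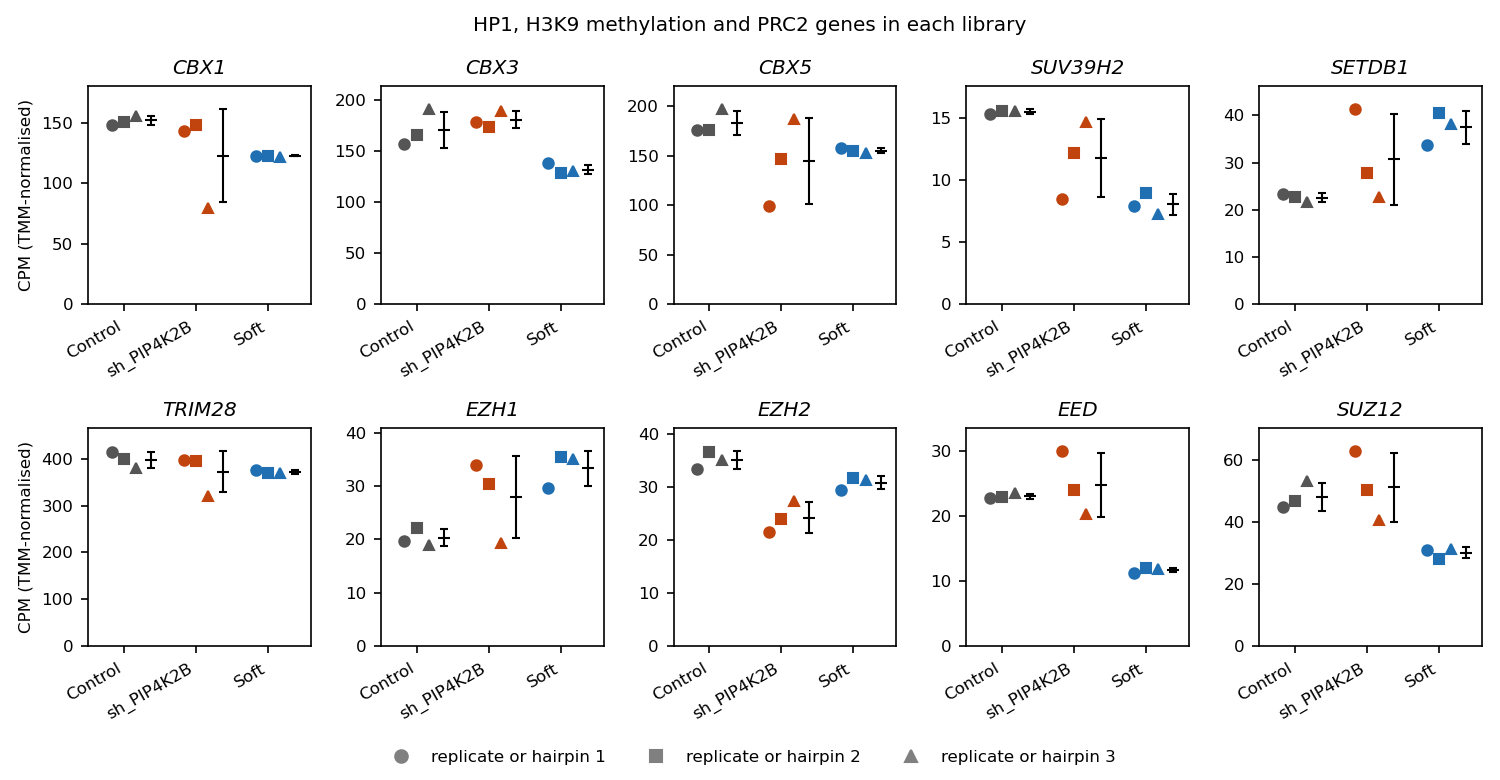
TMM-normalised CPM of the 10 genes (y axis, from 0) in every library of Control, sh_PIP4K2B and Soft (x axis); marker shapes give replicates or hairpins 1 to 3 and the bars the mean ± SD. EED and SUZ12 in Soft lie below all 6 libraries grown on glass, EZH2 is lower with every hairpin than in Control, and the hairpins are more widely spread than the other groups.

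The first question was whether loss of PIP4K2B on glass changed the RNA of these genes. None of the 10 genes passed the test in sh_PIP4K2B against Control (adjusted p below 0.01, edgeR), where 5.54% of all genes tested did (2.76% higher and 2.77% lower). At an unadjusted p under 0.05 there were 2, EZH1 and EZH2, a cut at which the share of all genes was not counted. DESeq2 called 1, EZH2, beside 13.5% of all genes. The median log2 fold change of the 10 was -0.01, against 0.05 over all genes tested. In 3 genes, CBX1, SUV39H2 and EZH2, every hairpin library was below every Control library, where 34.1% of all genes did not overlap (17.4% higher and 16.7% lower). As these are whole-culture RNA levels, fewer cells with a transcript and less of it per cell cannot be told apart.

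EZH2 had the difference with the smallest p. This gene (chr7:148807257-148884321, minus strand) was at 33.3, 36.6 and 35 CPM in Control, at 21.4, 23.9 and 27.3 CPM with hairpins #1 to #3, and at 29.4, 31.7 and 31.3 CPM in Soft. The groups did not overlap, and the difference in sh_PIP4K2B was -0.53 ± 0.11 on the log2 scale (SE, adjusted p = 0.014, edgeR). It passed the threshold in 3 of 16 alternatives, with DESeq2 (adjusted p = 0.00015) and with edgeR without hairpin #1 (0.0092) or hairpin #3 (0.0027). With edgeR it did not pass when any 1 library of Control (0.049 to 0.073) or of Soft (0.033 to 0.034) was left out. Nor did it pass with library size scaling (0.042), the replicate block (0.028) or a fit of the 2 groups alone (0.076). In Soft the difference from Control was -0.18 ± 0.11 (adjusted p = 0.21). Soft exceeded sh_PIP4K2B by 0.35 ± 0.11 (adjusted p = 0.032), which did not pass either.

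Its paralogue EZH1 (chr17:42700275-42745049, minus strand) went the other way in the fitted values. It was at 19.7, 22.1 and 19 CPM in Control, at 34, 30.3 and 19.3 CPM with the hairpins and at 29.6, 35.4 and 35 CPM in Soft. Hairpins #1 and #2 and all Soft libraries were above Control, and hairpin #3 lay within it. The log2 difference was 0.46 ± 0.19 in sh_PIP4K2B (adjusted p = 0.13) and 0.72 ± 0.19 in Soft (adjusted p = 0.014). Without hairpin #3 both passed, at 0.66 (adjusted p = 0.0053) and 0.7 (adjusted p = 0.00077), and without hairpin #1 the value in sh_PIP4K2B was 0.29 (adjusted p = 0.27).

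The ratio of EZH2 to EZH1 counts within a library does not depend on scaling. It was 1.69, 1.66 and 1.85 in Control, 0.63, 0.787 and 1.42 with hairpins #1 to #3, and 0.992, 0.896 and 0.895 in Soft. Every hairpin and Soft library was therefore below every Control library, with hairpin #3 nearest to Control. Per length the ratio was 2.9 to 3.23 in Control, 1.1 to 2.47 with the hairpins and 1.56 to 1.73 in Soft. On these lengths EZH2 was the more abundant transcript per kilobase in every library. The lengths are those of the canonical transcripts, 2.654 kb for EZH2 and 4.633 kb for EZH1, and other isoforms would give other ratios.

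Cell cycle genes were counted in the same libraries. Of 43 S phase genes 29 were lower in sh_PIP4K2B and 32 in Soft, none was higher in either, and their median log2 fold change was -0.85 and -0.91. Of 53 G2/M genes 33 were lower in sh_PIP4K2B and 18 in Soft, with medians of -0.84 and -0.27. Over all genes tested 2.77% were lower in sh_PIP4K2B and 14.8% in Soft, with medians of 0.05 and 0.01. The medians of single libraries were -0.85, -0.77 and -0.83 for S phase and -0.91, -0.68 and -0.91 for G2/M with hairpins #1 to #3. CBX5, which belongs to the G2/M list, and all other members were left out of these counts. The part of the cell cycle in the differences of the 10 genes was not tested.

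**Figure D2:**
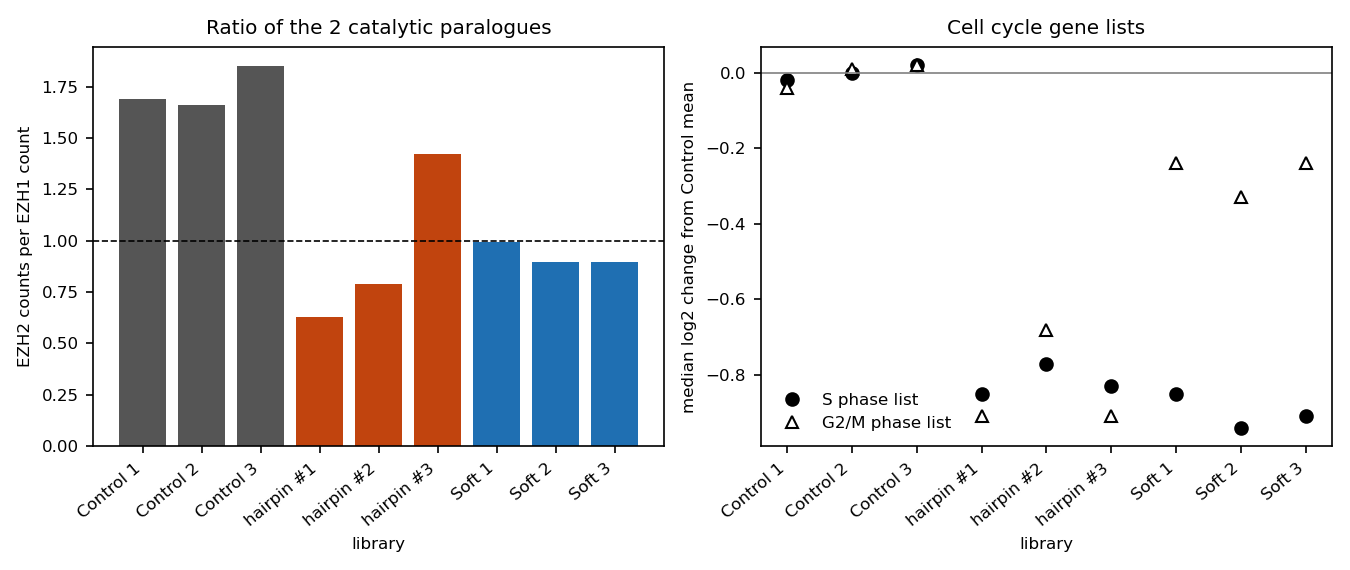
Left, EZH2 counts per EZH1 count in each library (bars from 0, dashed line at 1); right, the median log2 change from the Control mean of the 43 S phase and 53 G2/M genes in the same libraries. Control ratios are 1.66 to 1.85 and Soft ratios 0.895 to 0.992, and hairpins #1 and #3 have ratios of 0.63 and 1.42 and a G2/M median of -0.91 each.

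The other PRC2 core subunits were compared next. EED (chr11:86201212-86278813, plus strand) was at 22.8, 23 and 23.6 CPM in Control, at 30, 24.1 and 20.3 CPM with the hairpins and at 11.3, 12 and 11.8 CPM in Soft. The Soft libraries were below all 6 libraries on glass, and the hairpins lay on both sides of Control. EED fell in Soft against Control (log2 fold change -0.98 ± 0.14 SE, adjusted p = 0.00058, edgeR) and differed by 0.10 ± 0.14 in sh_PIP4K2B (adjusted p = 0.67). Set against sh_PIP4K2B directly, Soft was lower by a log2 difference of -1.08 ± 0.14 (adjusted p = 0.00038), so the effects of gel and knockdown differed. Both calls on EED held in all 16 alternatives to the settings, with adjusted p of at most 0.0046 and 0.0043.

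SUZ12 (chr17:31937007-32001038, plus strand) followed the same pattern at a smaller size. It was at 44.7, 46.7 and 53.3 CPM in Control, at 62.8, 50.2 and 40.6 CPM with the hairpins and at 30.9, 28.1 and 31.4 CPM in Soft. Again the Soft libraries were below all others, and the hairpins spanned the Control range. SUZ12 fell in Soft against Control by 0.68 on the log2 scale (SE 0.16, adjusted p = 0.0066, edgeR), was 0.09 ± 0.16 higher in the sh_PIP4K2B fit (adjusted p = 0.74), and was lower in Soft than in sh_PIP4K2B (-0.76 ± 0.16, adjusted p = 0.0038). Of its canonical transcript's 75-base words, 6.2% also occur in other genes, chiefly the pseudogene SUZ12P1, so part of its counts may be shared. The call against Control was lost when any 1 library of Control or of Soft was left out (adjusted p of 0.016 to 0.033) and with library size scaling (0.024), and the call against sh_PIP4K2B was lost without any 1 Soft library (0.015 to 0.021) and in a fit of the 2 groups alone (0.016). Without hairpin #1 the values in sh_PIP4K2B turned negative, at -0.06 for EED and -0.09 for SUZ12.

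In all, Soft against Control called 3 of the 10 genes, EED, SUZ12 and SUV39H2, each of them lower, against 30.6% of all genes tested (15.8% higher and 14.8% lower). Their groups did not overlap in any of the 10, 8 of them lower and 2 higher in Soft, where 79.4% of all genes did not overlap (40.4% higher and 39.1% lower). The median of the 10 was -0.27, against 0.01 over all genes. A fit that left the hairpin libraries out, and with them their wide spread, called 9 of the 10, all but TRIM28, while calling 70.7% of all genes. DESeq2 over the 9 libraries called 6, which were these 3 with CBX3, SETDB1 and EZH1, while calling 34.3% of all genes. Without any 1 of Control replicates 1 to 3 or Soft replicates 1 or 3 the count was 1. Those fits called 17.9% to 19.4% of all genes. Without hairpin #1 or #3 the count was 6 or 7, beside 45.6% and 41.7% of all genes.

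**Figure D3:**
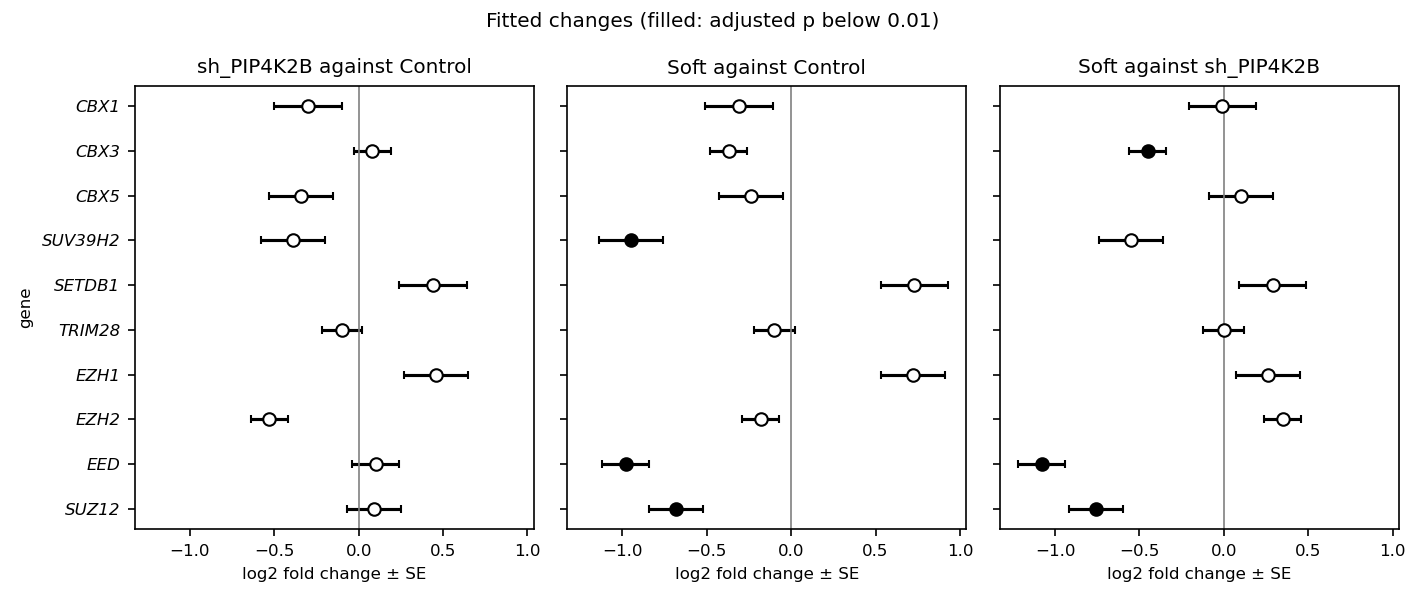
Log2 fold change ± SE of the 10 genes (y axis) in the 3 comparisons (panels, shared x axis), filled where adjusted p was below 0.01. No gene is filled in sh_PIP4K2B against Control, SUV39H2, EED and SUZ12 are filled and below 0 in Soft against Control, and CBX3, EED and SUZ12 are filled and below 0 in Soft against sh_PIP4K2B.

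Among the H3K9 genes, the methyltransferase SUV39H2 (chr10:14878820-14904315, plus strand) fell in Soft. Its level was 15.3, 15.6 and 15.6 CPM in Control, 8.47, 12.2 and 14.7 CPM with the hairpins, and 7.89, 8.95 and 7.29 CPM in Soft. All hairpin and Soft libraries were below Control, hairpin #1 near the Soft level and hairpin #3 near the Control level. The fall in Soft was -0.95 ± 0.19 on the log2 scale (SE, adjusted p = 0.0032, edgeR), the hairpin libraries differed by -0.39 ± 0.19 (adjusted p = 0.18), and the difference between them, -0.55 ± 0.19, did not pass (adjusted p = 0.04). Without any 1 of the 3 Control libraries, or of Soft replicates 1 and 3, the Soft call was lost (adjusted p of 0.012 to 0.019).

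SETDB1 (chr1:150926263-150964744, plus strand), the other methyltransferase, differed in the opposite direction. It was at 23.4, 22.8 and 21.6 CPM in Control, at 41.3, 27.8 and 22.8 CPM with the hairpins and at 33.7, 40.6 and 38.1 CPM in Soft. All Soft libraries and hairpins #1 and #2 were above Control, and hairpin #3 was inside its range. The difference was 0.73 ± 0.20 in Soft (adjusted p = 0.014) and 0.44 ± 0.20 in sh_PIP4K2B (adjusted p = 0.15), neither past the threshold. Without hairpin #1 or #3 the Soft difference passed (adjusted p = 0.00049 and 0.0039), and without hairpin #1 the value in sh_PIP4K2B was 0.16 (adjusted p = 0.34).

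TRIM28 (chr19:58544064-58550722, plus strand) was the flattest of the set. Its levels of 414, 399 and 380 CPM in Control, 398, 396 and 321 CPM with the hairpins and 376, 369 and 369 CPM in Soft gave -0.10 ± 0.12 in both comparisons with Control (adjusted p = 0.59 and 0.51), and the value in Soft turned to 0.0089 with library size scaling. The single library below 369 CPM was hairpin #3.

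None of the HP1 genes passed the main test against Control, and they were not tested against one another. In a fit of Control and Soft alone CBX1, CBX3 and CBX5 passed (adjusted p = 2.8e-06, 4e-05 and 0.00018, edgeR), beside 70.7% of all genes. In Soft against Control CBX3 also passed with DESeq2 (0.0011) and, with edgeR, without any 1 hairpin (0.0054 to 0.0097). CBX1 passed there without hairpin #3 (0.0026, edgeR). CBX3 (HP1 gamma, chr7:26201162-26213607, plus strand) was at 157, 166 and 191 CPM in Control, at 179, 174 and 189 CPM with the hairpins and at 138, 129 and 131 CPM in Soft. The Soft libraries lay below all others and the hairpins lay within the Control range. Its difference was 0.08 ± 0.11 in sh_PIP4K2B (adjusted p = 0.65) and -0.37 ± 0.11 in Soft (adjusted p = 0.017). In the main fit only Soft against sh_PIP4K2B passed (-0.45 ± 0.11, adjusted p = 0.0071, edgeR). That call did not hold without any 1 of the Soft libraries or without Control replicate 1 or 2 (adjusted p of 0.012 to 0.037), nor with no filter (0.011), library size (0.017) or upper quartile scaling (0.015), nor in a fit of the 2 groups alone (0.025). CBX3 shares 5.39% of its 75-base words with other genes, chiefly CBX3P9, so part of its counts may be shared too. All of the 10 but CBX1 and TRIM28 overlap a gene annotated on the opposite strand.

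CBX1 (HP1 beta, chr17:48070052-48101478, minus strand) was at 148, 151 and 156 CPM in Control, at 143, 148 and 79.5 CPM with the hairpins and at 123, 123 and 122 CPM in Soft. The group mean with the hairpins, 123 ± 38.2 CPM (SD, n = 3), equalled that in Soft, 123 ± 0.554, yet it came from hairpin #3 alone, with the other 2 close to Control. The log2 difference was -0.30 ± 0.20 in sh_PIP4K2B (adjusted p = 0.33) and -0.06 without hairpin #3, and it was -0.31 ± 0.20 in Soft (adjusted p = 0.23).

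CBX5 (HP1 alpha, chr12:54230942-54280133, minus strand) was at 176, 176 and 197 CPM in Control, at 99.7, 147 and 187 CPM with the hairpins and at 158, 155 and 153 CPM in Soft. Here hairpin #1 was lowest, and hairpin #3, lowest for CBX1, was inside the Control range. The difference was -0.34 ± 0.19 in sh_PIP4K2B (adjusted p = 0.25), -0.13 without hairpin #1, and -0.24 ± 0.19 in Soft (adjusted p = 0.33).

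As a share of the 3 HP1 transcripts per length, CBX1 made up 39.5% to 42.7% in Control, 41.3% to 42.6% in Soft, 40.8% and 41.1% with hairpins #1 and #2, and 25.2% with hairpin #3. CBX5 made up 9.25% to 9.59% in Control, 9.96% to 10.1% in Soft, and 5.36%, 7.76% and 11.2% with hairpins #1 to #3. CBX3 made up 47.7% to 51.1% in Control, 47.2% to 48.8% in Soft, and 53.9%, 51.2% and 63.6% with hairpins #1 to #3. For CBX3 all hairpins were above the Control range, hairpin #2 only just (51.2% against 51.1%). For CBX5 hairpins #1 and #3 lay on opposite sides of the Control range.

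The hairpins also ordered most of the genes in opposite ways. CBX5, SUV39H2 and EZH2 were lowest with hairpin #1 and highest with hairpin #3. SETDB1, EZH1, EED, SUZ12 and TRIM28 were highest with hairpin #1 and lowest with hairpin #3, TRIM28 with hairpins #1 and #2 nearly equal (398 and 396 CPM). CBX1 and CBX3 had neither order. PIP4K2B itself was at 48.4, 40.9 and 36.6 CPM with hairpins #1 to #3. With 1 library per hairpin this order has no replicate.

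Soft and sh_PIP4K2B were compared directly to ask whether the soft gel and the knockdown gave different levels. CBX3, EED and SUZ12 passed, 3 of the 10 and all lower in Soft, against 30% of all genes tested (14.5% higher and 15.5% lower). Groups did not overlap in 4 genes, these 3 and EZH2, against 54% of all genes (27.3% higher and 26.7% lower). The median of the 10 was -0.0045, against -0.03 over all genes. Without any 1 of the Soft libraries the count was 1, beside 16.8% to 17.1% of all genes. Without hairpin #1 it was 5, beside 38.4% of all genes.

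Partner genes of the same complexes were counted next, in lists drawn up by role. Of 19 further genes of H3K9 methylation or HP1 binding, 2 fell and none rose in sh_PIP4K2B, with a median log2 fold change of 0.19. SUV39H1, the paralogue of SUV39H2, was at 21, 23.1 and 21.6 CPM in Control and at 15.9, 13.6 and 13.9 CPM with the hairpins (-0.60 ± 0.11, adjusted p = 0.0083, edgeR). In Soft it was at 17.7, 16.8 and 16 CPM, all below Control (-0.38, adjusted p = 0.02, not past the threshold). CHAF1A, the large subunit of a chromatin assembly factor that binds HP1 at replication, was at 66.3 to 70 CPM in Control, 27.9 to 36.2 CPM with the hairpins and 38.7 to 40.9 CPM in Soft. It fell in both, by 1.06 in sh_PIP4K2B (adjusted p = 0.00091) and by 0.78 in Soft (adjusted p = 0.00052). Leaving out any 1 library of Control or of Soft gave 1 call for this list, and leaving out hairpin #1, #2 or #3 gave 5, 6 and 4. A fit of Control and sh_PIP4K2B alone gave 0 calls for this list, and 5 over all genes.

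In Soft 3 of the 19 were higher and 3 lower, with a median of -0.03. EHMT2, the G9a methyltransferase of H3K9, was at 54.3, 52.3 and 51.5 CPM in Control, at 31, 39.5 and 47.8 CPM with the hairpins and at 111, 114 and 113 CPM in Soft. It rose in Soft against Control (1.09 ± 0.14, adjusted p = 0.00031) and was further above sh_PIP4K2B (1.51 ± 0.15, adjusted p = 8e-05), whose libraries were all below Control. POGZ, which binds HP1, rose by 0.73 (adjusted p = 0.0012), and SUV420H2 (KMT5C), a methyltransferase of histone H4 lysine 20, rose by 0.94 (adjusted p = 0.0076). CHAMP1 fell by 0.65 (adjusted p = 0.00041), and LBR, the inner nuclear membrane receptor that binds HP1 and also belongs to the G2/M list, fell by 0.64 (adjusted p = 0.0068). In Soft against sh_PIP4K2B 1 was higher and 4 lower, with ZNF644 (-1.02 ± 0.18, adjusted p = 0.0016) and LBR (-0.98 ± 0.15, adjusted p = 0.00076) lowest.

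Of 10 accessory subunits of PRC2, 9 were tested. CXorf67 (EZHIP), an inhibitor of the complex, had no count in any library, which does not show that its RNA was absent. None of the 9 passed in sh_PIP4K2B (4, 5 and 3 did without hairpins #1, #2 and #3), with a median of 0.56. In Soft 1 was higher and 2 were lower, with a median of 0.04. PHF19, a Polycomb-like subunit that binds methylated histone H3, was at 60.2, 58.5 and 58.2 CPM in Control, at 37.7, 43.6 and 44.3 CPM with the hairpins and at 107, 98.3 and 104 CPM in Soft. The 3 groups did not overlap, and PHF19 rose in Soft against Control (0.81 ± 0.10, adjusted p = 0.00021) and against sh_PIP4K2B (1.30 ± 0.10, adjusted p = 2.7e-05).

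LCOR, whose locus encodes a PRC2-associated protein, showed the reverse pattern, with 13.9, 15.9 and 21.2 CPM in Control, 28.1, 28 and 43.4 CPM with the hairpins and 9.26, 9.38 and 9.03 CPM in Soft. It fell in Soft against Control (-0.88 ± 0.21, adjusted p = 0.0077) and against sh_PIP4K2B (-1.84 ± 0.21, adjusted p = 0.00019). C17orf96 (EPOP), a PRC2 partner that binds elongin, fell by 0.80 in Soft (adjusted p = 0.0077). MTF2, another Polycomb-like subunit, was at 13.1 to 16.8 CPM in Control, 22.8 to 44.5 CPM with the hairpins and 14 to 14.7 CPM in Soft, and was lower in Soft than in sh_PIP4K2B (-1.10 ± 0.24, adjusted p = 0.0047). The count in Soft against Control was 1 without Control replicate 2 or 3 or without any 1 of the Soft libraries, and without hairpin #1 it was 5, as it was against sh_PIP4K2B.

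PRC1, the second Polycomb complex, ubiquitinates histone H2A and reads the PRC2 mark through its CBX subunits. Of 23 PRC1 genes 2 were higher and none lower in sh_PIP4K2B, with a median of 0.21. PHC3, a polyhomeotic subunit, was at 21.4, 22.5 and 24.8 CPM in Control, at 34.7, 31.6 and 32.7 CPM with the hairpins and at 18.7, 19.9 and 19.1 CPM in Soft. The groups did not overlap, and PHC3 rose by 0.53 in sh_PIP4K2B (adjusted p = 0.0096, edgeR). Leaving out any 1 Control library left no PRC1 gene called in sh_PIP4K2B, and leaving out any 1 Soft library left 1. A fit of Control and sh_PIP4K2B alone called none of them either. Against sh_PIP4K2B, Soft gave 3 PRC1 calls in place of 5 when any 1 of those libraries was left out, and 9 and 8 without hairpins #1 and #3.

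In Soft 5 of the 23 were higher and none lower, with a median of 0.29. CBX7, a reader of the PRC2 mark, was at 3.54 to 4.98 CPM in Control and at 8.57 to 9.79 CPM in Soft (1.13 ± 0.23, adjusted p = 0.0031). PCGF2 rose from 36.1 to 41.1 CPM in Control to 73.7 to 79.2 CPM in Soft (0.98 ± 0.21, adjusted p = 0.0039). PHC1 was at 37.8 to 39.1 CPM in Control, 44.4 to 45.1 CPM with the hairpins and 72.7 to 74.7 CPM in Soft, and rose by 0.93 ± 0.08 (adjusted p = 4.8e-05). Against sh_PIP4K2B, 3 PRC1 genes were higher in Soft, BCORL1 (1.33 ± 0.30, adjusted p = 0.0061), PHC1 (0.72 ± 0.08, adjusted p = 0.00019) and the ligase RING1 (0.48 ± 0.12, adjusted p = 0.0097), and 2 were lower, PHC3 among them (-0.78 ± 0.10, adjusted p = 0.00036). In Soft against Control the count was 3 without Control replicate 2 or 3 or any 1 Soft library, and it was 10, 8 and 11 without hairpins #1, #2 and #3.

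The shares of each list called, in either direction, were close to the 30.6% of all genes in Soft against Control, at 31.6% for H3K9 and HP1 partners, 33.3% for PRC2 accessory subunits and 21.7% for PRC1. In sh_PIP4K2B they were 10.5%, 0% and 8.7%, beside 5.54% of all genes. In Soft against sh_PIP4K2B they were 26.3%, 33.3% and 21.7%, beside 30% of all genes. The share of all genes also moved with the library left out. It ran from 0.471% to 14.4% in sh_PIP4K2B against Control and from 17.9% to 45.6% in Soft against Control. In Soft against sh_PIP4K2B it ran from 16.8% to 38.4%.

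**Figure D4:**
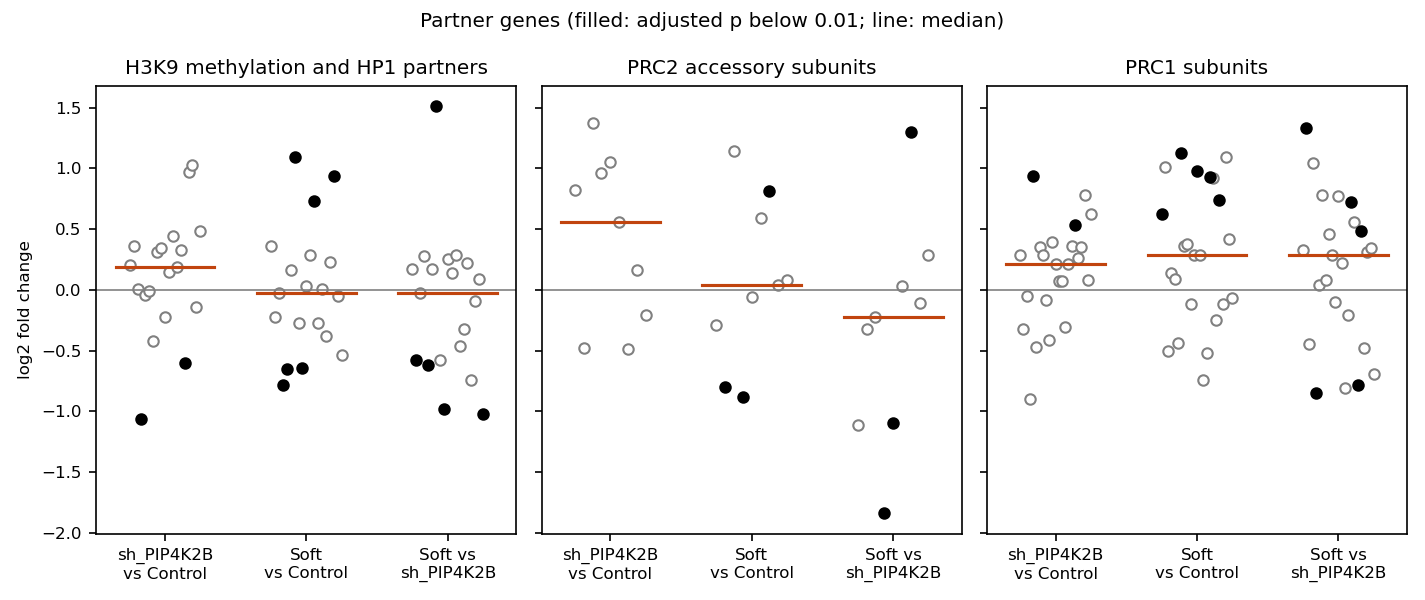
Log2 fold change of each partner gene (points) in the 3 comparisons for 19 H3K9 and HP1 partners, 9 PRC2 accessory subunits and 23 PRC1 subunits, filled where adjusted p was below 0.01, with the list median as a line. Filled points lie on both sides of 0 in Soft against Control for the first 2 lists and above 0 for PRC1.

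Over the 9 libraries, the genes with the pattern most like that of the genes called were found by the root mean square difference of centred log2 CPM. For EED these were PSME4 (0.05) and U2SURP (0.06), for SUZ12 NUDT21 (0.06) and TIMM10B (0.06), for CBX3 PRKAA1 (0.05) and RHEB (0.06), and for SUV39H2 RBMS2 (0.09) and TSPAN5 (0.10). The SDs of the centred values of the 4 genes themselves were 0.53, 0.40, 0.22 and 0.46 and the 9 libraries fall into 3 groups.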

How the data were processed

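Per the labels and the study's methods, stranded mRNA libraries were prepared from total RNA and reads were aligned to GRCh38/hg38 with STAR. Salmon is also named in the submitters' processing notes, with no role, and the annotation and the use of strand in counting are not given in the sources used here. The authors deposited 1 unnormalised table of estimated counts, with a column for each library. Of its values 12.3% were not whole, and all were rounded.

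The 9 libraries were grouped by their labels and fitted together with edgeR 4.0.16 in R 4.3.3 (TMM, filterByExpr, quasi-likelihood F test, two-sided). Benjamini-Hochberg adjustment ran over the 13784 genes tested, with a threshold of 0.01, and each SE was taken from the F statistic. The fit pools the spread of the 3 groups, so the wide spread of the hairpins enters every comparison. CPM used TMM library sizes. Alternatives were DESeq2 1.42.0, other filters, scalings, thresholds and libraries, and a replicate block. The code was checked on simulated data. Transcript lengths and coordinates are GENCODE's, promoters RefSeq's, and cell cycle lists those of Seurat 5.3.0.

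The members and lists were chosen with earlier results of these data known. Named partner genes were those with the largest difference, up to 3 higher and 3 lower per list and comparison, among those with adjusted p below 0.01. One gene that this rule names is not reported here. For each of the genes called, the 2 nearest in pattern were named.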

Additional observations from a re-analysis of the deposited data

Results flagged for a closer look

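For 3 of the 10 genes the effects of the soft gel and of the knockdown differed in the direct test of Soft against sh_PIP4K2B (edgeR quasi-likelihood, adjusted over all genes tested). The log2 difference was -1.08 for EED (adjusted p = 0.00038), -0.76 for SUZ12 (adjusted p = 0.0038) and -0.45 for CBX3 (adjusted p = 0.0071), each lower in all 3 Soft libraries than in all 3 hairpin libraries. Over the 16 alternatives the adjusted p ran up to 0.0043 for EED, 0.021 for SUZ12 and 0.037 for CBX3. Groups of 3 libraries are too small for a test of single outlying values.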

How the results depend on the processing

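Of 480 fold changes (10 genes, 3 comparisons, 16 alternatives), 408 kept their direction and side of the threshold, 27 lost it, 27 gained it and 18 changed sign, each of the last in a difference of at most 0.10 in size. In sh_PIP4K2B against Control, EED was -0.06 and SUZ12 -0.09 without sh_PIP4K2B replicate 1 (with 1 library left out, -0.06 to 0.22 and -0.09 to 0.23). In Soft against Control, TRIM28 was 0.0089 with library size scaling, which shifted the median of all genes from 0.01 to 0.12. In Soft against sh_PIP4K2B, CBX1 was 0.01 with at least 10 counts in every library, 0.02 with library size, 0.07 with upper quartile and 0.02 with the replicate block, and TRIM28 was 0.02, 0.02, 0.07 and 0.0055. With 1 library left out, CBX1 ran from -0.26 to 0.14, TRIM28 from -0.11 to 0.04 and CBX5 from -0.12 to 0.32.

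In sh_PIP4K2B against Control, the 10 genes gave 1 call with DESeq2 and 1 at an adjusted p below 0.05 (0 to 2 with 1 library left out). H3K9 and HP1 partners gave 1 with no filter, 1 with library size, 4 with DESeq2, 0 with the 2 groups alone and 5 at 0.05 (1 to 6). PRC2 accessory subunits gave 4 with DESeq2 and 5 at 0.05 (0 to 5), and PRC1 gave 1 with no filter, 1 with library size and 0 with the 2 groups alone (0 to 3). In Soft against Control, the 10 genes gave 5 with upper quartile, 6 with DESeq2, 9 with the 2 groups alone and 6 at 0.05 (1 to 7). H3K9 and HP1 partners gave 15 with the 2 groups alone (4 to 9 with 1 library left out). PRC2 accessory subunits gave 1 with library size, 5 with DESeq2, 6 with the 2 groups alone and 5 at 0.05 (1 to 5), and PRC1 gave 9, 17 and 9 with DESeq2, the 2 groups alone and 0.05 (3 to 11). In Soft against sh_PIP4K2B, the 10 genes gave 1 with the 2 groups alone and 5 at 0.05 (1 to 5). H3K9 and HP1 partners gave 4 to 7 with 1 library left out. PRC2 accessory subunits gave 5 with DESeq2 and 5 at 0.05 (2 to 5), and PRC1 gave 11, 3 and 12 (3 to 9). The share of all genes at an adjusted p below 0.05 was not counted, so the list counts at 0.05 stand without a background. Shares over all genes shifted too. In sh_PIP4K2B against Control they were 3.57% with no filter, 4.84% with library size, 13.5% with DESeq2 and 0.0375% with the 2 groups alone. In Soft against Control they were 28.7% with library size, 31% with upper quartile, 34.3% with DESeq2 and 70.7% with the 2 groups alone. In Soft against sh_PIP4K2B they were 35.3% with DESeq2 and 16.1% with the 2 groups alone. Fits with the 2 groups alone differ by construction in the libraries that set the spread, and the cause of the other shifts was not tested.

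Sample titles number the control vector from 1 to 3 in both Control and Soft, and the main fit did not pair the samples. Deviations from the group means of same-numbered libraries correlated at -0.12 to 0.04 across genes. With 3 libraries per group these values cannot show whether the numbers mark pairs. With the replicate block the 10 genes gave 0, 2 and 2 calls in the 3 comparisons in the order above. Of all genes it called 2.14%, 25.7% and 24.4%. H3K9 and HP1 partners gave 1 call and PRC1 gave 1 in sh_PIP4K2B with the block. SUZ12 in Soft against Control (adjusted p = 0.014) and CBX3 in Soft against sh_PIP4K2B (0.017) lost their calls under it. Over all genes, calls in sh_PIP4K2B against Control numbered 763, and 1996 with DESeq2, 295 with the block and 5 with the 2 groups alone, and in Soft against Control 4217 and 9601 with the 2 groups alone.

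With 3 libraries per group and 1 per hairpin, small differences such as those of CBX1 and CBX5 did not pass in the main fit. In Soft against Control both passed in the fit of the 2 groups alone (adjusted p = 2.8e-06 and 0.00018, edgeR), which called 70.7% of all genes. The counts of genes called depend strongly on whether the hairpin libraries enter the estimate of the spread.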

Other observations

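Among PRC2 accessory subunits, JARID2, which helps to recruit the complex to DNA, was singled out after its values were seen. It was at 30.6, 28.7 and 31.2 CPM in Control, at 50.8, 54 and 128 CPM with hairpins #1 to #3, and at 63.3, 70.9 and 65.4 CPM in Soft, so every hairpin and Soft library was above every Control library. With the hairpins the log2 difference was 1.37 ± 0.31 (SE, adjusted p = 0.018, edgeR), on the gel it was 1.14 ± 0.31 (adjusted p = 0.014), neither past the threshold of 0.01, and both are taken against the same Control libraries. RBBP4 and RBBP7, the histone-binding subunits of PRC2, differed by 0.16 and -0.21 in sh_PIP4K2B and by 0.04 and 0.08 in Soft, none past the threshold.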
